A study of Homo sapiens with 14 samples.

Results

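C-to-U edits were examined in 8 genes of polyamine synthesis and its feedback control (AZIN1, AMD1, ODC1, OAZ1, OAZ2, SRM, SMS and SAT1). A site or an edit cluster belonged to a gene when it lay on the strand and within the span of the gene in Gencode 44 (hg38). The 8 genes held 355 of 394915 site calls, at 321 of 363599 positions, and stand among 16716 genes with a site on their strand. All 8 genes had sites. The spans of AZIN1, ODC1, OAZ1 and SAT1 overlap another annotated gene on the same strand (ENSG00000289653, SNORA80B, ENSG00000273734 and ENSG00000288706), although the region order assigned every site in the 8 spans to the gene itself. The set was selected on the comparison of RBFOX2 with Buffer-only libraries at 1 ng, in which the site numbers of AZIN1 and AMD1 had been called higher. Its values at 1 ng are therefore given as a description.

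RBFOX2, a nuclear splicing regulator that recognises UGCAUG, was mapped in HEK293T, a line of human embryonic kidney origin that some labels write as HEK293XT, after fixation with methanol. RBFOX2 libraries received a rabbit anti-RBFOX2 antibody and a nanobody fused to the cytidine deaminase APOBEC1, so that cytosines near the bound antibody were deaminated in the fixed cells. Enzyme-only libraries received the fusion protein without the antibody, and Buffer-only libraries received neither. At each input, 1 ng or 100 pg of RNA, there were 3 RBFOX2, 3 Buffer-only and 1 Enzyme-only library, 14 in all. The replicates were separate slides of 1 line that the study calls technical, so p-values cover the spread between slides. The 100 pg libraries are not stated to come from other slides than those of 1 ng. Both inputs come from bulk RNA, in which fewer cells with a transcript and less transcript per cell cannot be told apart, and a site can be called only where reads cover it.

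At 1 ng the RBFOX2 libraries held 40162 to 42589 sites each, the Enzyme-only library 38007 and the Buffer-only libraries 20330 to 22543. For 100 pg these numbers were 26554 to 27437, 24829 and 18650 to 21140. Library medians of site coverage ranged from 19 to 23 reads. Of 5 markers expected in this line, VIM, KRT8, KRT18 and LIN28B held sites and PAX2 held 0. Markers of blood cells (4 genes), hepatocytes (2) and differentiated kidney (3) held 0 sites in all 14 libraries. Edit calls are not expression values, so this check is indirect.

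Polyamines (putrescine, spermidine and spermine) are small cations that bind RNA and DNA and are needed for growth. ODC1 makes putrescine from ornithine, AMD1 supplies decarboxylated S-adenosylmethionine, and the synthases SRM and SMS use it to build spermidine and spermine. SAT1 acetylates spermidine and spermine for breakdown and export. The antizymes OAZ1 and OAZ2 are translated through a frameshift that polyamines promote, bind ODC and deliver it to the proteasome, and AZIN1, an ODC homologue without enzyme activity, sequesters the antizymes.

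The edits fell unevenly over the pathway. AZIN1 and AMD1, through which the set was selected, held most sites of the RBFOX2 libraries at 1 ng, 67 and 55 of 177. OAZ1 and SRM held 1 each. These numbers are not scaled by length. The canonical 3′UTRs are 2259 nt long in AZIN1, 2097 in AMD1 and 1131 in OAZ2, against 276 to 756 nt in the other genes. The part of length in the order of the genes was not tested. By mean per RBFOX2 library at 1 ng the order was AZIN1 (22.3 ± 9.2, SD, n = 3), AMD1 (18.3 ± 4.9), OAZ2 (6.7 ± 4.5), SMS (4.3 ± 0.58), ODC1 (3.3 ± 1.2), SAT1 (3.3 ± 2.3), and OAZ1 and SRM (0.33 ± 0.58 each). The ranges of AZIN1 (17 to 33 sites) and AMD1 (15 to 24) overlapped each other, as did those of OAZ2, SMS, SAT1 and ODC1, and the lowest AMD1 value lay above the highest value of all 6 other genes. Summed over the 8 genes, the 1 ng RBFOX2 libraries held 57, 65 and 55 sites, the Buffer-only libraries 8, 8 and 5, and the Enzyme-only library 28. With 100 pg the RBFOX2 sums were 23, 26 and 34, those of Buffer-only 9, 13 and 4, and that of Enzyme-only 20. Scaled to 10000 sites of the library, the 1 ng means were 14.2 ± 1.2 (RBFOX2) and 3.2 ± 0.89 (Buffer-only), and the 100 pg means 10.2 ± 2.0 and 4.2 ± 2.1.

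**Figure D1:**
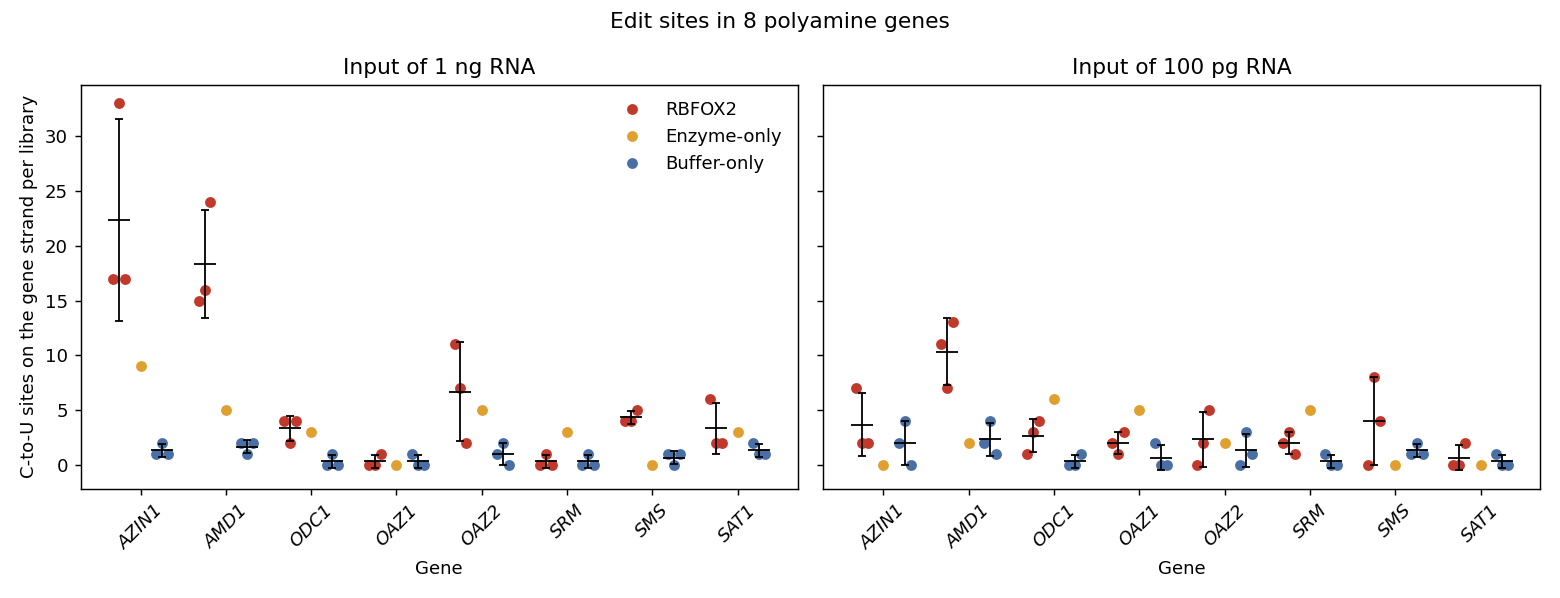
Number of C-to-U sites on the gene strand (y axis) in each library for the 8 polyamine genes (x axis), with the 1 ng input on the left and the 100 pg input on the right. Points are libraries, and horizontal marks with bars are the mean ± SD of 3 libraries. AZIN1 and AMD1 lie above the Buffer-only libraries at 1 ng, and at 100 pg only AMD1 has its RBFOX2 libraries (7 to 13 sites) entirely above its Buffer-only libraries (1 to 4 sites).

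AMD1 (ENSG00000123505.19, chr6:110874770-110898879, plus strand) encodes S-adenosylmethionine decarboxylase. The canonical 3′UTR of AMD1 is 2097 nt long and holds 3 copies of UGCAUG, searched on the transcribed strand, starting 188, 248 and 1182 nt past the stop codon. Of 19228 canonical 3′UTRs of protein-coding genes, 33.3% hold UGCAUG. Of the 5616 that are at least as long as that of AMD1, 67.8% hold it and 17.4% hold at least as many copies. These windows are shown because each copy lies beside C-to-U calls of RBFOX2 libraries. They are hg38 reference sequence on the plus strand, written 5′ to 3′ as DNA, with the motif and the called cytosines in capitals.
AMD1 motif 1, chr6:110893797-110893826: gatatctTGCATGaatgctctCttctgtgt
AMD1 motif 2, chr6:110893857-110893886: attgaagTGCATGtagaaaaaaCcttttac
AMD1 motif 3, chr6:110894794-110894823: gtgaTGCATGtgagtgttccgaCttCatct

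Beside motif 1, the C inside the motif was called in RBFOX2 replicate 1 of 1 ng (1 edited read of 51). The C 11.5 nt past the motif centre was called in replicates 1 and 3 (2 of 57 and 1 of 47 reads). Beside motif 2, a C 12.5 nt past the centre was called in replicates 1 and 2 of 1 ng (1 of 56 reads in each) and again in replicate 3 of 100 pg (2 of 97). Beside motif 3, a C 15.5 nt past the centre was called in replicates 1 and 2 (2 of 62 and 2 of 42 reads), and a C 18.5 nt past it in replicate 3 (2 of 52). Each of the 3 RBFOX2 libraries of 1 ng thus had calls beside motif 2 or motif 3, although mostly at different cytosines and on 1 or 2 edited reads.

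Within 50 nt of UGCAUG, AMD1 held 4, 2 and 2 sites in the RBFOX2 libraries of 1 ng and 0, 0 and 3 in those of 100 pg. The 8 Buffer-only and Enzyme-only libraries held 0. They had few AMD1 sites in all, 5 in Buffer-only and 5 in Enzyme-only at 1 ng and 7 and 2 at 100 pg, too few to compare shares. Of the 8 such sites at 1 ng, 7 lay 3′ of the motif centre and the other lay within the motif. Of the 3 at 100 pg, all in replicate 3, 1 lay 3′ and 2 lay 5′ of it, the farthest at −28.5 nt.

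Over the whole AMD1 gene, the RBFOX2 libraries of 1 ng held 15, 16 and 24 sites, the Buffer-only libraries 2, 1 and 2, and the Enzyme-only library 5. The fitted log2 fold change of site numbers, RBFOX2 over Buffer-only, was 1.75 ± 0.56 (SE, TMM scaling), after a scaling that takes out the larger number of sites per RBFOX2 library. At 100 pg the RBFOX2 libraries held 11, 7 and 13 sites, the Buffer-only libraries 2, 4 and 1, and the Enzyme-only library 2. The groups did not overlap, with means of 10.3 ± 3.1 against 2.3 ± 1.5 (SD, n = 3 each), and the exact two-sided permutation test gave p = 0.1, the smallest that 3 against 3 libraries can give. Non-overlap was common, since 307 of 1158 genes that met the lower count minimum (at least 3 sites in at least 3 libraries and 5 over all) had their RBFOX2 values entirely above their Buffer-only values at 100 pg (26.5%). AMD1 was the only one of the 8 genes to meet that minimum at 100 pg, and it did so through its RBFOX2 libraries. In edgeR it had a log2 fold change of 1.36 ± 0.60 with an adjusted p of 0.389 over these 1158 genes, none of which was called higher (0%), while 117 were higher at an unadjusted p under 0.05. With edgeR's default filter AMD1 was not among the 16 genes tested at 100 pg, none of which was called higher (0%).

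The opposite strand of AMD1 served as a comparison that editing of the AMD1 transcript does not reach, as far as the libraries kept strand. At 1 ng it held 2, 5 and 1 sites in the RBFOX2 libraries against 2, 0 and 3 without enzyme. For 100 pg it held 1, 3 and 5 against 4, 6 and 1, and the exact permutation test gave p = 0.8. Edited reads gave the same order as sites on the gene strand. At 100 pg there were 67, 30 and 69 edited reads in RBFOX2, 3, 7 and 9 in Buffer-only and 2 in Enzyme-only (exact permutation p = 0.1). The median coverage at called AMD1 sites was 47 reads in RBFOX2, 57 in Enzyme-only and 53 in Buffer-only at 1 ng. It was 71 reads over the 31 RBFOX2 calls, 61 over the 2 Enzyme-only calls and 44 over the 7 Buffer-only calls at 100 pg, where it was thus higher in RBFOX2, and its part in the result was not tested.

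AZIN1 (ENSG00000155096.15, chr8:102826111-102893864, minus strand) encodes antizyme inhibitor 1. The RBFOX2 libraries of 1 ng held 17, 33 and 17 sites, the Buffer-only libraries 1, 2 and 1, and the Enzyme-only library 9. The fitted log2 fold change was 2.34 ± 0.64 (SE). Replicate 2 stood above the others in sites but less so in edit clusters, which merge neighbouring edits: the RBFOX2 libraries held 11, 14 and 11 clusters and the Enzyme-only library 7. One run of 4 sites within 25 nt, each with 1 or 2 edited reads, accounted for a part of the sites of replicate 2.

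The AZIN1 groups overlapped at 100 pg. The RBFOX2 libraries held 7, 2 and 2 sites, the Buffer-only libraries 2, 4 and 0 and the Enzyme-only library 0, and the exact permutation test gave p = 0.7 for means of 3.7 ± 2.9 against 2.0 ± 2.0. The RBFOX2 libraries of 100 pg had 50, 4 and 11 edited reads, against 2, 8 and 0 for Buffer-only (exact permutation p = 0.2). The difference in AZIN1 sites was thus not detectable beyond the spread between libraries at this input. Coverage at the AZIN1 calls was not alike between groups at 1 ng, with a median of 26 reads over the 67 RBFOX2 calls, 31 over the 9 Enzyme-only calls and 7 over the 4 Buffer-only calls, and its part in the result was not tested.

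AZIN1 and AMD1 differed in where UGCAUG lay. The canonical 3′UTR of AZIN1 is 2259 nt long and holds 0 copies of UGCAUG. In the RBFOX2 libraries of 1 ng, 54 of 67 AZIN1 sites fell in this 3′UTR, and 2 of 67 lay within 50 nt of UGCAUG, both in an intron and in replicate 3, on 8 and 9 reads. In AMD1, 32 of 55 sites fell in the canonical 3′UTR and 8 of 55 lay near the motif. Counting the 3′UTR of any Gencode transcript raised these to 59 and 44.

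The authors' confident clusters, which the methods describe as an intersection of the 3 replicates, included 3 in AMD1 and 3 in AZIN1 among the 776 that remained at 1 ng after removal of Buffer-only clusters. All 6 lie in the canonical 3′UTRs. In AMD1 these are chr6:110893792-110893836, which contains motif 1, chr6:110894227-110894256, whose centre lies 375 nt from the nearest motif, and chr6:110894797-110894841, which contains motif 3. In AZIN1 they start 474, 789 and 1434 nt past the stop codon, at chr8:102828034-102828093, chr8:102827704-102827778 and chr8:102827089-102827133, and none contains UGCAUG. Each of the 3 AZIN1 intervals overlapped an edit cluster in all 3 RBFOX2 libraries of 1 ng, which the definition of the list asks for, and in none of the other 11 libraries. Called sites inside the intervals were fewer. In the order given, RBFOX2 replicates 1, 2 and 3 of 1 ng held 1, 1 and 3 sites, then 0, 1 and 2, then 0, 0 and 1. Of the AMD1 intervals, the first overlapped a cluster in replicates 1 and 3 of 1 ng and replicate 3 of 100 pg, but none in replicate 2 of 1 ng, although it is in the list. The middle one overlapped a cluster in all 3 RBFOX2 libraries and also in Buffer-only replicate 1, in which the only C called within the interval, which follows a C, carried more edited reads (3 of 37) than in RBFOX2 replicates 2 and 3 (1 of 37 and 1 of 41). The last overlapped a cluster in all 3 RBFOX2 libraries of 1 ng and in no other library. None of the 214 confident clusters of 100 pg lay in any of the 8 genes.

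**Figure D2:**
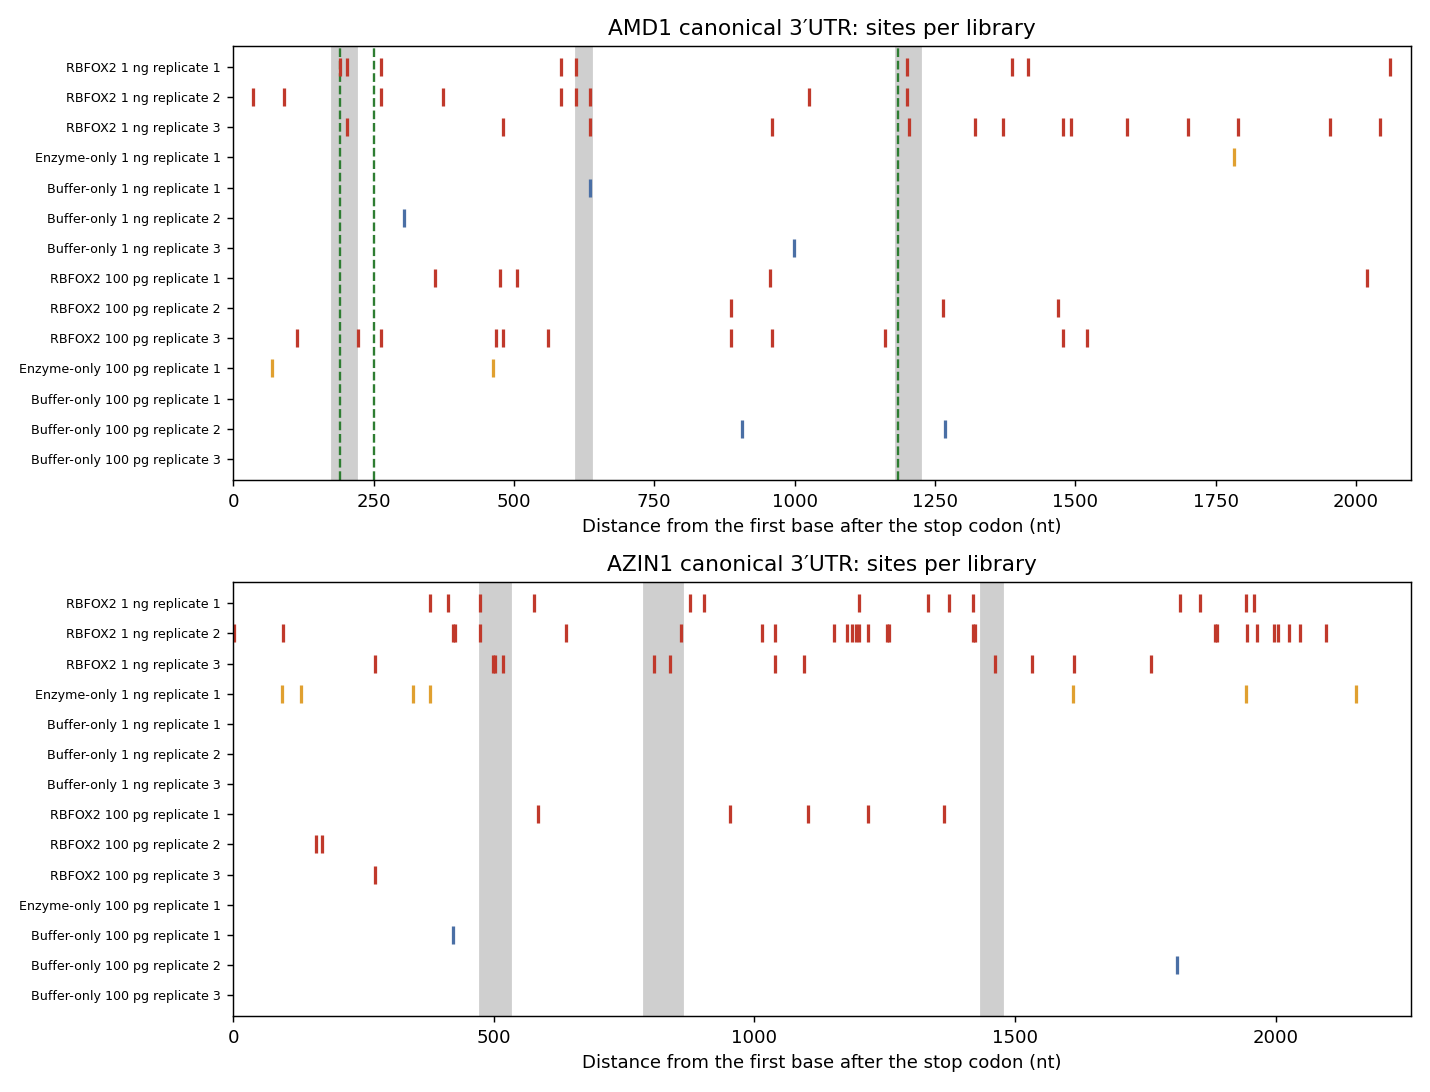
Called sites (ticks) along the canonical 3′UTRs of AMD1 (top) and AZIN1 (bottom), 1 row per library, with the distance from the first base after the stop codon in nt on the x axis. Red is RBFOX2, yellow Enzyme-only and blue Buffer-only, dashed lines are UGCAUG and grey bands are the confident RBFOX2 clusters of 1 ng. AMD1 has 3 copies of UGCAUG and AZIN1 has 0, and the sites of both spread over most of the 3′UTR.

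Most positions were called once. Of 165 positions called in RBFOX2 libraries of 1 ng, 12 were called in more than 1 of them and 0 in all 3. Of all 321 positions, 21 were called in at least 2 RBFOX2 libraries of either input and in no Enzyme-only or Buffer-only library. The share over all positions of the series was not computed, and each RBFOX2 library held more sites than the controls of its input. The count is therefore a description. AMD1 held 11 and AZIN1 6 of these 21, and OAZ1, OAZ2, SMS and SAT1 held 1 each. The called C followed an A at 18 of the 21 and a U at the other 3, the bases that APOBEC1 is known to prefer before its target, and 3 of the 21, all in AMD1, lay within 50 nt of UGCAUG. A selection of the repeated positions without UGCAUG within 50 nt is shown with the called C in capitals, as the hg38 sequence of the gene strand.
AMD1, chr6:110894190-110894210: attccagttaCtcattttgca
AMD1, chr6:110894216-110894236: gctattttaaCattattggac
AMD1, chr6:110894493-110894513: actggctgaaCtgtggaaaac
OAZ1, chr19:2273274-2273294: gtttgtgataCtgaagtattt
SAT1, chrX:23785346-23785366: ttgccatgtaCtattttacct
SMS, chrX:21994748-21994768: caaaaattgaCttagatatta

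The first pair of AMD1 positions was called in replicates 1 and 2 of 1 ng (2 of 24 and 1 of 28 reads, then 2 of 37 and 1 of 33). The AMD1 position of chr6:110894493-110894513 was called in replicates 2 and 3 of 100 pg, on 7 of 19 and 4 of 23 reads. In each of the selected windows the called C follows an A, while the repeated OAZ2 position chr15:64703105, not shown, follows a U.

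Over the 8 genes together, the C followed an A or U in 82.6% ± 2.5 of the sites of the 1 ng RBFOX2 libraries (SD, n = 3), 71.4% of the Enzyme-only sites and 45% ± 18.0 of the Buffer-only sites. At 100 pg the shares were 77.4% ± 4.8, 50% and 39.2% ± 14.2. Over all sites on a gene strand the corresponding shares were 76.7% ± 0.38, 72.7% and 47.9% ± 0.69 at 1 ng, and 65.3% ± 0.32, 60.0% and 47.5% ± 0.44 at 100 pg. The Buffer-only shares of the 8 genes rest on 4 to 13 sites per library. Sites within 50 nt of UGCAUG made up 8.10% ± 3.2 of the RBFOX2 sites of the 8 genes at 1 ng (6.08% ± 0.18 over all genes) and 3.92% ± 6.8 at 100 pg (4.54% ± 0.043). The spread of these RBFOX2 shares over libraries covers the value of all genes at both inputs. Near the motif lay 0 of the 21 and 26 Buffer-only sites and 0 of the 28 and 20 Enzyme-only sites. Over all genes the shares at 1 ng and 100 pg were 2.47% ± 0.15 and 2.64% ± 0.086 in Buffer-only, and 2.86% and 2.78% in Enzyme-only. The control sites of the 8 genes were too few to compare with such shares. The 3′UTR of any transcript held 71.6% ± 8.8 of the RBFOX2 sites of the 8 genes at 1 ng, against 51.0% ± 0.44 over all genes. Without the antibody the shares were 50% against 42.8% in Enzyme-only and 52.5% ± 28.8 against 37.3% ± 0.68 in Buffer-only, a spread that covers the value of all genes. For 100 pg they were 66.1% ± 10.8 against 43.0% ± 0.72 in RBFOX2, 85% against 37.3% in Enzyme-only and 61.5% ± 11.8 against 31.5% ± 0.77 in Buffer-only. At 1 ng AZIN1 and AMD1, which the selection favoured, supplied 103 of the 127 RBFOX2 sites.

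Edit percentages of the same position could be set side by side at the 9 positions that were called in RBFOX2 libraries of both inputs, 6 in AMD1, 2 in AZIN1 and 1 in SMS. The pooled share of edited reads was higher at 100 pg at 7 of the 9. In AZIN1 it was 8.70% (2 of 23 reads) at 1 ng and 23.9% (11 of 46) at 100 pg at one position, and 5.97% (4 of 67) and 24.4% (10 of 41) at the other. In AMD1 the largest step was from 6.25% (2 of 32) to 17.1% (6 of 35), and the motif 2 site gave 1.79% and 2.06%. The other 2 positions were lower at 100 pg, in SMS with 6.14% (7 of 114) and 1.82% (2 of 110), and in AMD1 with 3.28% (2 of 61) and 1.65% (2 of 121). A position enters this comparison only if it was called at both inputs, and reads carried no molecular identifiers that the methods describe, so these shares are a description. Of all RBFOX2 sites in the 8 genes, 50.3% rested on 1 edited read at 1 ng and 20.5% at 100 pg.

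**Figure D3:**
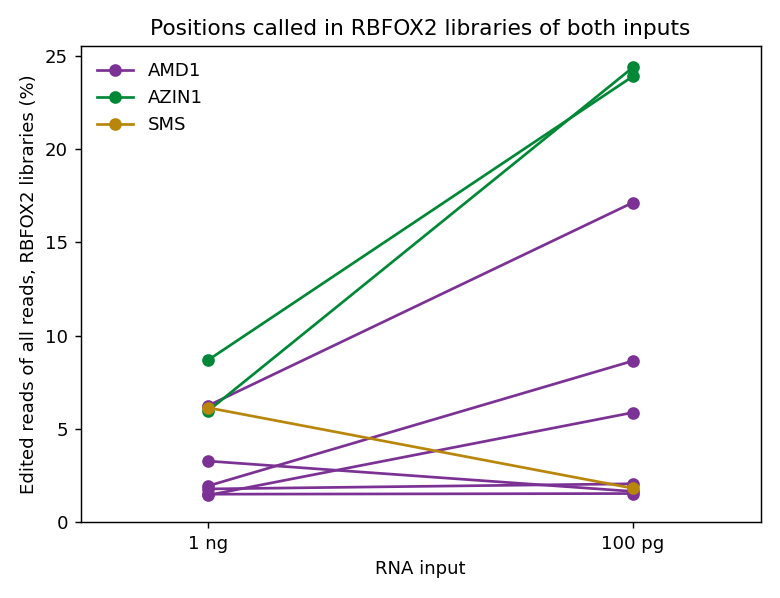
Share of edited reads in percent (y axis), pooled over the RBFOX2 libraries that called the position, at 1 ng and 100 pg (x axis) for the 9 positions of AMD1 (6), AZIN1 (2) and SMS (1) called at both inputs. Lines join the same position, and 7 of 9 rise, with the steepest in AZIN1, from 8.70% to 23.9% and from 5.97% to 24.4%.

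Of the antizymes, OAZ1 (ENSG00000104904.12, chr19:2269509-2273490, plus strand) had the deepest called clusters of the 8 genes and among the fewest sites. The RBFOX2 libraries of 1 ng held 0, 0 and 1 sites, the Buffer-only libraries 1, 0 and 0 and the Enzyme-only library 0, and the 1 RBFOX2 call rested on 4 of 365 reads. At 100 pg there were 2, 1 and 3 sites in RBFOX2, 2, 0 and 0 in Buffer-only and 5 in Enzyme-only (exact permutation p = 0.3 for RBFOX2 against Buffer-only). The clusters called in OAZ1 at 100 pg in RBFOX2 libraries had a median depth of 1365 reads, against 139 in AMD1 and 80.1 in AZIN1. The C of chr19:2273274-2273294, shown above, was called in RBFOX2 replicates 1 and 3 of 100 pg on 7 of 607 and 8 of 716 reads, 1.15% and 1.12%. Another OAZ1 position, chr19:2271936, was called in Buffer-only replicate 1 of both inputs (7 of 664 and 15 of 755 reads), where no enzyme was present, and follows a C. The OAZ1 span holds 0 copies of UGCAUG.

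OAZ2 (ENSG00000180304.14, chr15:64687573-64703281, minus strand) held 11, 7 and 2 sites in the RBFOX2 libraries of 1 ng, 1, 2 and 0 in Buffer-only and 5 in Enzyme-only. The RBFOX2 sites lay in the 3′UTR (6), the 5′UTR (8) and the coding sequence (6). The count of replicate 1 included a run of 6 sites within 14 nt of the 5′UTR, at chr15:64703094-64703107, each on 1 edited read of 25 to 31. The groups overlapped at 100 pg, with 0, 2 and 5 sites in RBFOX2, 0, 3 and 1 in Buffer-only and 2 in Enzyme-only (exact permutation p = 0.7). No OAZ2 site lay within 50 nt of UGCAUG.

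ODC1 (ENSG00000115758.14, chr2:10439968-10448327, minus strand) held 4, 2 and 4 sites in the RBFOX2 libraries of 1 ng, 0, 1 and 0 in Buffer-only and 3 in Enzyme-only. At 100 pg it held 1, 3 and 4 in RBFOX2, 0, 0 and 1 in Buffer-only and 6 in Enzyme-only (exact permutation p = 0.2 for RBFOX2 against Buffer-only). The Enzyme-only libraries lay within or above the RBFOX2 range at both inputs, and 5 of the 6 Enzyme-only sites at 100 pg formed a run within 37 nt. The canonical 3′UTR of ODC1 has 0 copies of UGCAUG. A copy in an upstream exon, annotated as 3′UTR in another transcript, is shown because RBFOX2 replicate 3 of 1 ng had a call inside it on 2 of 141 reads. The motif, which includes the called C, is in capitals, on the minus strand of hg38.
ODC1, chr2:10441609-10441638: acctgcctgaaaTGCATGtgggtgattgga
A further site 5′ of this motif, at −33.5 nt from its centre, was called in replicate 1 (2 of 97 reads).

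The spermine synthase gene SMS (ENSG00000102172.16, chrX:21940709-21994837, plus strand) held 4, 4 and 5 sites in the RBFOX2 libraries of 1 ng, 1, 0 and 1 in Buffer-only and 0 in Enzyme-only. Its log2 fold change at 1 ng was 1.24 ± 0.95 under the lower count minimum, which it met through the RBFOX2 libraries. At 100 pg the RBFOX2 values were 0, 8 and 4, the Buffer-only values 1, 2 and 1 and the Enzyme-only value 0, and RBFOX2 replicate 1 lay below all 3 Buffer-only libraries (exact permutation p = 0.4). The Buffer-only list of 100 pg contains a confident cluster in the SMS 3′UTR at chrX:21994373-21994417. A pair of SMS introns gave calls at the C that directly precedes UGCAUG, in capitals with the motif, on the plus strand of hg38.
SMS, chrX:21976198-21976227: gccagaatcttCTGCATGctaaaaccactg
SMS, chrX:21981689-21981718: aagttatccatCTGCATGagaaccaagtta
The first was called in RBFOX2 replicate 2 of 1 ng on 2 of 6 reads and the second in RBFOX2 replicate 3 of 100 pg on 6 of 18 reads, each in 1 library only. The SMS span holds 22 copies of UGCAUG.

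The spermidine synthase gene SRM (ENSG00000116649.10, chr1:11054584-11060020, minus strand) held 0, 1 and 0 sites in the RBFOX2 libraries of 1 ng, 0, 1 and 0 in Buffer-only and 3 in Enzyme-only. At 100 pg it held 2, 3 and 1 in RBFOX2, 1, 0 and 0 in Buffer-only and 5 in Enzyme-only (exact permutation p = 0.2 for RBFOX2 against Buffer-only), so that the Enzyme-only library had the highest value at both inputs. None of the 17 SRM positions was called more than once.

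SAT1 (ENSG00000130066.17, chrX:23783173-23786210, plus strand) held 6, 2 and 2 sites in the RBFOX2 libraries of 1 ng, 2, 1 and 1 in Buffer-only and 3 in Enzyme-only. At 100 pg it held 0, 0 and 2 in RBFOX2, 1, 0 and 0 in Buffer-only and 0 in Enzyme-only (exact permutation p = 1). All 10 RBFOX2 sites of 1 ng followed an A or U, and 4 of them lay in exons of noncoding transcripts. The canonical SAT1 3′UTR has 1 UGCAUG, with 0 sites within 50 nt of it.

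Of the 8 genes, 4 had RBFOX2 values entirely above the Buffer-only values at 1 ng (AZIN1, AMD1, ODC1 and SMS). Among all genes that met the lower count minimum, 1530 of 2707 had this non-overlap (56.5%). The sets are unlike, since only 3 of the 8 genes met that minimum (AZIN1, AMD1 and SMS). All 3 had the non-overlap, and a gene high in RBFOX2 alone can meet the minimum. With 100 pg the non-overlap held for AMD1 alone, and for 26.5% of the 1158 genes that met the lower count minimum. It held for 3 of the 8 genes without replicate 1 of either group and for 2 without replicate 3 of either group. Leaving out a library makes non-overlap easier for any gene, and the share over all genes was not computed there. The RBFOX2 mean was the higher for all 8 genes at 100 pg and for 6 at 1 ng, both unscaled and per 10000 sites of the library. The share of all genes with a higher RBFOX2 mean was not computed, so nothing is read from these counts. Over the 1158 genes that met the lower count minimum at 100 pg, the median log2 fold change was 0.84 without scaling and 0.10 with TMM. The unscaled means of SAT1 at 100 pg were only 0.67 and 0.33 sites. The exact permutation p-values of the 8 genes at 100 pg ranged from 0.1 to 1. In the edgeR fit at 1 ng with its default filter, 2 of the 8 genes were tested, AZIN1 and AMD1, and both were higher, among 13 of 101 genes (12.9%). With the lower count minimum SMS was tested as well and was not called, among 40 of 2707 genes called higher (1.48%). Nothing is read from these calls, since they chose the genes.

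A further 24 genes of connected reactions were examined. Sites were found in 21 of them, in 6 of 9 other polyamine enzymes and antizymes, 4 of 4 transport genes, 4 of 4 genes of the hypusination of eIF5A, which takes its aminobutyl group from spermidine, and 7 of 7 genes of methionine supply and salvage, the reactions that feed AMD1 and recover its by-product. At 1 ng 7 of the 24 met the lower count minimum. In edgeR 1 was called higher and 0 lower (1.48% of all genes were called higher). All 7 were chosen by a minimum that a gene high in RBFOX2 alone can meet. The gene called was ATP13A3, a P5-type ATPase of polyamine transport, with 9, 20 and 13 sites in RBFOX2, 1, 0 and 1 in Buffer-only and 5 in Enzyme-only (log2 fold change 2.88 ± 0.76, adjusted p = 0.0330 over all genes). It met the minimum through its RBFOX2 libraries, so that it had to differ to be tested. The call was lost without Buffer-only replicate 1, 2 or 3 (adjusted p = 0.203, 0.189 and 0.192) and with DESeq2 (0.367), and the gene did not meet the minimum without any of the RBFOX2 libraries. At 100 pg ATP13A3 held 9, 2 and 1 sites in RBFOX2 against 1, 3 and 0, which overlap.

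MTAP, which cleaves the methylthioadenosine left by the synthases, held 14, 19 and 21 sites in RBFOX2 and 4, 4 and 3 in Buffer-only at 1 ng (log2 fold change 0.90 ± 0.45, adjusted p = 0.302), and 4, 4 and 5 against 0, 1 and 3 at 100 pg (0.90 ± 0.83, adjusted p = 0.704). MAT2A and MAT2B, the subunits of S-adenosylmethionine synthetase, held 3 to 10 and 3 to 16 sites in RBFOX2 at 1 ng against 0 to 2 in Buffer-only in each, and MAT2A held 5, 5 and 5 against 3, 1 and 1 at 100 pg. The salvage genes MRI1, APIP and ENOPH1 each had a mean of 5 sites per RBFOX2 library at 1 ng, with SDs of 4.0, 1.7 and 2.6. SLC18B1, a vesicular polyamine transporter, held 4, 2 and 15 sites, with replicate 3 far above the others, and was not in the fit. The RBFOX2 values lay entirely above the Buffer-only values in 6 of the 24 genes at 1 ng and in 4 at 100 pg. Among all genes that met the lower count minimum, which most of the 24 did not, the shares were 56.5% and 26.5%. The 4 were MAT2A, MAT2B, MTAP and EIF5A, the last of which was named after its values were seen (2, 2 and 2 against 0, 0 and 1).

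**Figure D4:**
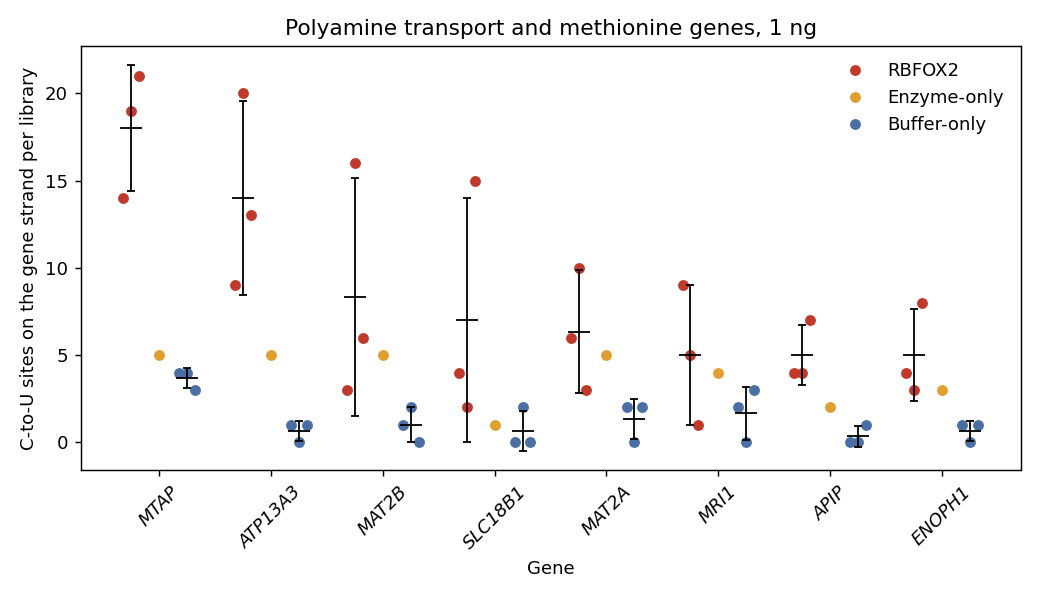
Number of C-to-U sites on the gene strand per library at 1 ng (y axis) for the 8 transport and methionine genes with a mean of at least 3 sites per RBFOX2 library (x axis). Points are libraries, and horizontal marks with bars are the mean ± SD of 3 libraries. MTAP and ATP13A3 have RBFOX2 means of 18 and 14 sites, and the Enzyme-only library has 5 sites in each.

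Over the 14 libraries, the genes whose sites per 10000 sites of the library moved most like those of AZIN1, of 1869 with a mean of at least 5 sites per RBFOX2 library at 1 ng, were ATP13A3 (Pearson r = 0.929), LEPROT (0.925), LRPPRC (0.917), CD58 (0.907) and FAM199X (0.906). For AMD1 they were HSPH1 (0.895), PAFAH1B2 (0.874), SERBP1 (0.872), SDHD (0.869) and PSAT1 (0.866). The correlation of AZIN1 with AMD1 was lower, at 0.604. The libraries form groups of different treatment and input. Differences between groups and within them both enter these values, which carry no test.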

How the data were processed

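Sequencing reads from RBFOX2, Enzyme-only and Buffer-only libraries were trimmed by the authors with cutadapt, cleared of repeat reads and aligned with STAR to the hg38 build (the submitters' processing notes give version 2.4.0). SAILOR called C-to-U sites after removal of known variants. The deposited site files give counts of edited and of all reads, a score (kept above 0.5) and the edit fraction (kept below 0.8). The authors called clusters with FLARE (false discovery rate 0.1, merge distance 15 nt). In the deposited cluster files there are counts, fractions, a score and a coverage signal. Of the deposited lists of confident clusters, which also give a coverage signal, positions alone were used. The study names the NEBNext Single Cell/Low Input RNA kit for these inputs and does not state that it keeps strand. The spans of AZIN1, OAZ1 and OAZ2 overlap annotated genes on the opposite strand, whose reads may not have been told apart. The treatment of reads with several placements is not given in the sources used here, so reads of near-identical copies could not be told apart.

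The site was the unit counted. Each was given 1 gene and region on its strand (3′UTR, then 5′UTR, coding sequence, noncoding exon, intron) with Gencode 44, and all sites matched a C in hg38. Python 3.11.15, pandas 2.3.3, numpy 2.4.6, scipy 1.17.1, bedtools 2.31.1 and matplotlib 3.10.9 were used. Motif distances run from the centre of UGCAUG, and "near" means within 50 nt. No site had under 5 reads. Site numbers per gene were tested with edgeR 4.0.16 (R 4.3.3, TMM, quasi-likelihood, Benjamini-Hochberg at 0.05), with its default filter or with at least 3 sites in at least 3 libraries and 5 over all. DESeq2 1.42.0 was an alternative. Single genes at 100 pg were compared with exact two-sided permutation tests, 40 in all (5 measures of 8 genes), whose smallest possible p with groups of 3 is 0.1. The edgeR step was tested on simulated data. Binomial intervals are not given, since PCR reads are not independent molecules.

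The 8 genes, the pathway lists and the tests were chosen with earlier results of these data known. All 8 genes were named, as were pathway genes with a mean of at least 3 sites per RBFOX2 library at 1 ng and the 5 genes most correlated with AZIN1 and AMD1. Replicate numbers are shared by the groups in the labels, but same-numbered libraries did not deviate together, with correlations of deviations from −0.03 to 0.01 over 2707 genes at 1 ng and 1158 at 100 pg.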

Additional observations from a re-analysis of the deposited data

Results flagged for a closer look

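The Enzyme-only libraries enter no comparison between groups, and they had more sites than every Buffer-only library of their input in several of the 8 genes. With 1 library per input these differences were not tested, and the share of all genes that show them was not computed. The counts are unscaled, and at 1 ng the Enzyme-only library held 38007 sites in all against 20330 to 22543 in Buffer-only. Per 10000 sites of the library, 5 genes remained at 1 ng, without SAT1 (0.789 against a highest Buffer-only value of 0.984), and the same 3 at 100 pg. At 1 ng the Enzyme-only library held 9 sites in AZIN1, 5 in AMD1, 5 in OAZ2, 3 in ODC1, 3 in SRM and 3 in SAT1, where the highest Buffer-only value was 2 for AZIN1, AMD1, OAZ2 and SAT1 and 1 for ODC1 and SRM. At 100 pg it held 6 sites in ODC1, 5 in OAZ1 and 5 in SRM, where the highest Buffer-only values were 1, 2 and 1, and these 3 Enzyme-only values also lay above every RBFOX2 library of 100 pg. AZIN1, AMD1 and SMS did not show this at 100 pg, with 0, 2 and 0 Enzyme-only sites.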

How the results depend on the processing

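At 1 ng the 13 genes called higher became 87 of the 101 tested without scaling, 40 with the lower count minimum, 5 with the replicate block and 0 with DESeq2 (12 higher at an unadjusted p under 0.05), and ranged from 2 to 15 when 1 library was left out. Without scaling the median log2 fold change of the tested genes was 1.59, against −0.05 with TMM. AZIN1 and AMD1 lost their calls with DESeq2 (adjusted p = 0.0596 and 0.148), AMD1 with the replicate block (log2 fold change 1.75, adjusted p = 0.0540), both without Buffer-only replicate 1 (0.0903 and 0.108) or 3 (0.0637 and 0.147), and AMD1 without Buffer-only replicate 2 (0.244). Without any of the RBFOX2 libraries neither gene met the filter (17 to 19 genes tested). Where fitted, their log2 fold changes ranged from 1.40 to 3.94. At 100 pg the 0 genes called higher (0 of 16 at an unadjusted p under 0.05) became 5 without scaling and 0 to 2 with 1 library left out, and stayed 0 with DESeq2 and the replicate block. These numbers share only a label, and the causes of the changes were not tested.

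The difference of the summed sites, RBFOX2 minus Buffer-only per library, was 52 at 1 ng and 19 at 100 pg. With a SAILOR score of at least 0.9 it was 21.7 at 1 ng, and with exonic sites only it was 48. As sites per 10000 sites of the library it was 10.9 at 1 ng and 5.98 at 100 pg, as edited reads 87.7 and 112, and as FLARE clusters 30.3 and 12.3. Leaving out 1 library gave 49 to 54 and 15.8 to 21.3. With the stricter score ODC1 turned at 1 ng, from 3 to −0.33. The number of the 8 genes with all RBFOX2 above all Buffer-only libraries was 4 to 5 at 1 ng and 1 to 3 at 100 pg with 1 library left out. With all libraries, 56.5% and 26.5% of the genes that met the lower count minimum had this non-overlap. The shares with 1 library left out were not computed, so these counts are a description. The share of RBFOX2 sites near UGCAUG at 1 ng, 8.10%, was 11.6% within 100 nt and 2.24% for GCACG, and 6.69% to 9.84% with 1 library left out, and at 100 pg it was 0% to 5.88% with 1 library left out, 0% without replicate 3. The part of depth in the site numbers was not tested.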
